A study of Saccharomyces x bayanus with 4 samples.

Results

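Assembly block c678 is the longest numbered stretch of genes on an array made for the yeast Saccharomyces bayanus. Its members are all gene probes of the array whose names carry the block name c678, put in the order of the gene number that follows it in the name. They were 169 of the 5482 genes measured (3.08%), and they ran from number 1 to number 169 with 0 numbers missing. The other genes fell in blocks of at most 95 genes, so that no other block gave as long a series of neighbours. A gene is written here as g with its number, so that g27 stands for sbay_c678-g27.1. The files used here pair these identifiers with no gene name or function, and the members are therefore described by number alone.

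A single group of 4 samples was measured. Total RNA was taken at mid-log phase from strain NRRL Y-11845 grown at 30 °C in rich medium (abbreviated CM, an in-house recipe). The 4 samples are named biological replicates in the methods of the study. There was no treatment, mutant or second condition, so each comparison below is between genes and not between conditions. On each of the 4 arrays, Cy3-labelled cDNA of 1 RNA sample was hybridised with genomic DNA of that strain labelled with Cy5, and the dyes were the same way round on all 4. All 4 arrays lay on 1 slide that was scanned once, so there was no slide or scan batch to separate them.

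Genomic DNA carries each single-copy gene in the same amount, so a spot's genomic DNA signal reports how well its probe hybridises and how many gene copies it can bind. Dividing the RNA signal by it gives a level of RNA per gene copy that can be set from gene to gene along a chromosome. Yeast genes are closely packed, with short stretches between them, and adjacent genes may point the same way, towards each other or away from each other. Genes that face away from each other can share a promoter region, and so the level of a gene can be set beside that of its neighbour. Species of Saccharomyces also descend from an ancestor whose whole genome was doubled, and some duplicate genes remain in paired regions. Neither the direction of the genes nor their distance apart was used here, and the sources used here do not state that the numbers follow the order along a chromosome. "Neighbours" below are genes of 1 block whose numbers differ by 1.

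Each member had 2 probes of 55 nucleotides. The median member had a Cy3 intensity of 3145 ± 364 and a Cy5 intensity of 15045 ± 980 scanner units above local background (SD, n = 4 arrays), and 0 member spots were saturated. Every spot of 168 of the 169 members passed the scanner's test for being well above background in Cy3 and in Cy5, as did those of 97.8% of all genes. The exception was g36, in which 6 of 8 Cy3 spots passed. Values below are log2 of Cy3 over Cy5 relative to the median gene of the array, so that 0 is the median of all genes and 1 unit is a doubling, and they are given with the SD over 4 arrays.

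The RNA level moved over a wide range within the block. Mean log2 ratios ran from -5.60 in g160 to 4.27 in g27, a span of 9.87 log2 units or 938-fold. The span depended on the processing. With the scanner software's processed signals, which include its own background and dye normalization, the members spanned 4.95 log2 units (31.0-fold), and with normexp background correction and loess normalization 5.21 (37.1-fold). Loess takes out the trend of the log ratio with spot intensity, and differences in RNA level that go with intensity can be lost with it. How far this happened here was not tested. The low end also rests on a dim Cy3 signal, given below for g160. The middle of the members was much narrower, from -0.73 at the lower quartile to 1.03 at the upper quartile. A gene was called above or below the median gene when limma, fitted over all 5482 genes with Benjamini-Hochberg adjustment, gave an adjusted p under 0.05 and the mean lay at least 1 log2 unit away. By this rule 43 of 169 members (25.4%) were above the median gene, where 25.8% of all genes were. Another 34 members (20.1%) were below it, where 24.6% of all genes were, and 92 were in neither call. With 2 log2 units asked for, 20 members were above (11.8% of all genes) and 13 were below (10.2% of all genes). The shares above were thus near those of the whole array, and the shares below were somewhat smaller. With processed signals the counts were 20 above (12.9% of all genes) and 19 below (14.9%). With loess they were 16 above (11.6%) and 27 below (18.0%), so that there were then more members below than above.

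**Figure D1:**
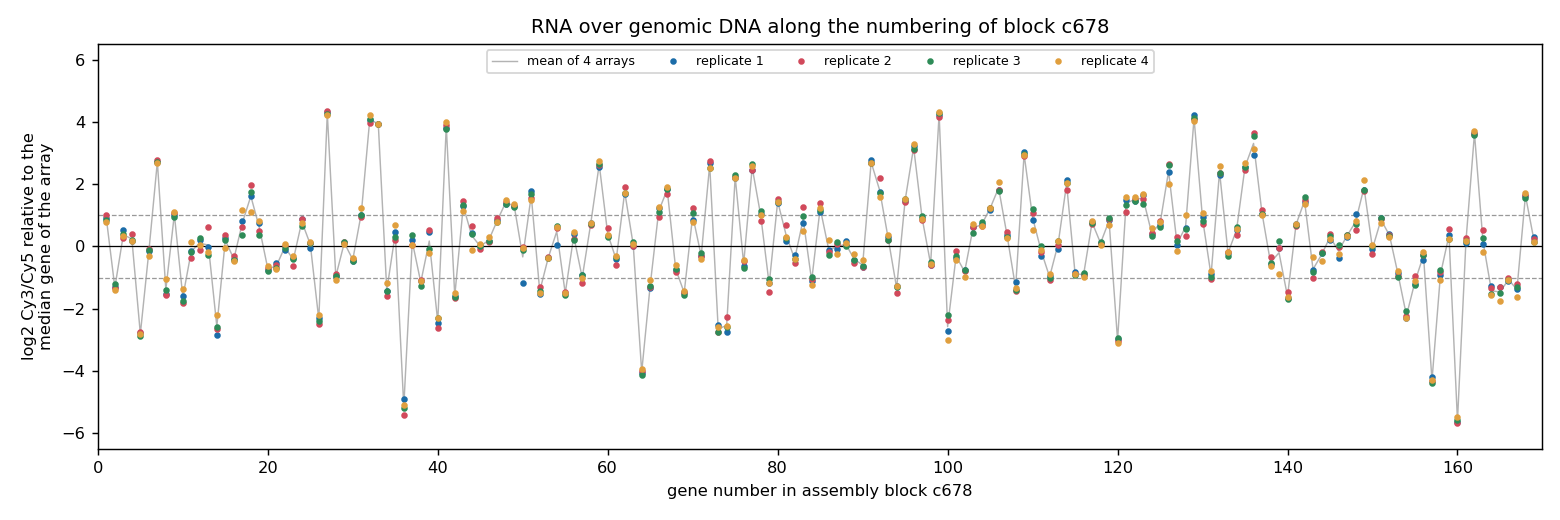
Log2 of RNA (Cy3) over genomic DNA (Cy5), relative to the median gene of each array, against gene number for the 169 genes of block c678. Points are the 4 replicate arrays, the line joins the means, and dashed lines mark 1 log2 unit either way. The points of a gene lie close together while adjacent genes jump, from -5.60 in g160 to 4.27 in g27 at the ends of the range.

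The block as a whole sat slightly higher than the rest of the array. The median member was above the median of all other genes by 0.18 ± 0.04 log2 units (SD, n = 4), from 0.13 on replicate 4 to 0.23 on replicate 2. It was higher on 4 of 4 arrays, and an exact two-sided sign-flip test gave p = 0.125, which is the smallest p that 4 arrays allow. The arrays measure the same genes, so this test concerns the spread between arrays only. It cannot tell whether the block differs from other sets of genes. The median over the members' means, 0.17, was 0.28 with normexp, 0.11 without the 9 members described below whose probes share bases with another gene, 0.073 with processed signals and -0.0066 with loess, so neither the size nor the direction of the shift was kept under every processing. Among the 24 blocks of at least 50 genes, medians ran from -0.28 to 0.49, and 4 of the other 23 blocks had a higher median than block c678 (0.17).

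With the values used here, the highest members were g27, g99, g129 and g32. The log2 ratio of g27 was 4.31, 4.34, 4.24 and 4.21 on replicates 1 to 4 (mean 4.27 ± 0.06, adjusted p = 2.7e-09). That of g99 was 4.23, 4.16, 4.28 and 4.32 (mean 4.25 ± 0.07, adjusted p = 2.7e-09). These 2 genes did not differ beyond their spread, and they stood at the percentiles 98.7 and 98.6 of all genes. The log2 ratio of g129 was 4.21, 4.10, 4.11 and 4.04 (mean 4.11 ± 0.07), and that of g32 was 4.06, 3.95, 4.10 and 4.22 (mean 4.08 ± 0.11). The lowest value of these 4 genes on any array was 3.95, in g32.

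The 4 genes reached that level in different ways. In g27, genomic DNA signal was only 0.57 ± 0.03 log2 units above the median gene, and the Cy3 signal stood 4.92 ± 0.11 above it. In g99, genomic DNA signal was 2.70 ± 0.09 above the median gene, the highest of the block, and Cy3 was 7.04 ± 0.23 above it. The ratio of g99 was therefore high although its Cy3 was divided by a Cy5 signal far above that of a usual gene. In g27 the divisor was closer to that of the median gene. Genomic DNA signal was 1.57 ± 0.07 in g129 and 1.22 ± 0.03 in g32. Under the processed signals, g27 was at 1.11, g32 at 0.41, g129 at -0.14 and g99 at -0.75, so g99 and g129 changed sign there. They also did so with loess, as given in the closing section. The ranking changed with them. With processed signals 14 members lay above g27, with g43 the highest at 1.74, and with loess 4 did, with g43 again the highest at 1.45.

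With the values used here, the lowest members were g160, g36, g157 and g64. The log2 ratio of g160 was -5.65, -5.69, -5.58 and -5.49 on replicates 1 to 4 (mean -5.60 ± 0.09, adjusted p = 2.5e-09). Its genomic DNA signal was 0.56 ± 0.07 above the median gene, so the low ratio came with an ample DNA signal. Its Cy3 intensity was 89.8 scanner units as a mean over arrays, against 21692 in Cy5. That of g36 was -4.90, -5.40, -5.20 and -5.09 (mean -5.15 ± 0.21), at a Cy3 intensity of 56.6 units. Negative control spots had a median Cy3 of 10 to 14.5 units over local background, and the brightest of them reached 88 to 309.5 units on the different arrays. The Cy3 intensity of g36 was 70.2, 54.8, 60.6 and 44.0 on replicates 1 to 4, above the median control spot and below the brightest one on each array. That of g160 was 85.4, 94.1, 98.1 and 82.4, below the brightest control spot on 3 of 4 arrays.

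The other 2 of the lowest 4 were also tight between arrays. The log2 ratio of g157 was -4.21, -4.33, -4.40 and -4.28 (mean -4.30 ± 0.08), and that of g64 was -4.08, -3.99, -4.13 and -3.93 (mean -4.03 ± 0.09). Genomic DNA signal was near the median gene in g157 (0.14 ± 0.10) and under it in g64 (-0.91 ± 0.06). The next member up, g120, was at -3.01 ± 0.06. With processed signals these genes stayed below the median gene, at -3.21 in g160, -2.99 in g36, -2.15 in g157 and -0.98 in g64. With loess, g160 and g157 stayed below by over 1 log2 unit (-2.73 and -1.41), whereas g36 was at -0.77 and g64 at 0.011. The ranking at the low end changed there too, with g5 the lowest member at -3.76 and g160 at rank 3 from the lowest.

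Adjacent genes of the block mostly differed in RNA level. The median of the absolute difference between neighbours was 1.55 ± 0.04 log2 units over the 4 arrays (168 pairs), and 1.43 ± 0.01 over the 5089 neighbouring pairs of all blocks. On the means over arrays, the median pair differed 2.90-fold. A limma fit over all 5089 pairs called 113 of the 168 pairs (67.3%) as different by at least 1 log2 unit, where 63.3% of all pairs were called. The gene with the higher number was the higher one in 55 pairs (32.0% of all pairs) and the lower one in 58 (31.2% of all pairs), so neither direction prevailed. At a distance of 2 log2 units, 63 pairs were called (35.8% of all pairs). The median absolute difference on the means was 1.54, and it was 0.77 with processed signals (72 pairs called, 41.5% of all pairs) and 0.83 with loess (75 pairs called, 43.7% of all pairs). Of the 168 pairs, 27 lay within 0.5 log2 units of each other (19.4% of all pairs did), and in 92 the genes were on opposite sides of the median gene (46.9% of all pairs).

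The biggest steps were between g99 and g100, g26 and g27, g40 and g41, and on either side of g160. From g99 to g100 the log2 ratio changed by -6.96, -6.52, -6.49 and -7.33 on replicates 1 to 4 (mean -6.82 ± 0.40, adjusted p = 1.2e-09). This was 113-fold, and Cy3 alone fell by 9.59 across the same pair. The step did not keep its size or direction under other processing, being -0.47 ± 0.12 with processed signals (g99 at -0.75 and g100 at -1.22) and 0.29 ± 0.29 with loess (g99 at -0.89 and g100 at -0.61). From g26 to g27 it rose by 6.60, 6.83, 6.63 and 6.42 (mean 6.62 ± 0.17, adjusted p = 2.6e-10), with genomic DNA signal lower by 0.21 in g27. A gene well below the median gene (g26, -2.35 ± 0.12) thus stood directly before g27. This step was 3.1 ± 0.15 with processed signals and 4.15 ± 0.29 with loess. From g40 to g41 it rose by 6.26, 6.51, 6.08 and 6.29 (mean 6.28 ± 0.18, adjusted p = 2.7e-10), and genomic DNA signal rose by 1.08 with it. The step was 1.71 ± 0.10 with processed signals and 1.63 ± 0.17 with loess, with g41 itself at -0.087 and -0.39.

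Gene g160 stood alone between a pair of genes near the median. From g159 the ratio changed by -6.02, -6.25, -5.82 and -5.73 (mean -5.95 ± 0.23, adjusted p = 4.3e-10). It then rose to g161 by 5.75, 5.96, 5.74 and 5.67 (mean 5.78 ± 0.12, adjusted p = 2.6e-10). The levels on either side were 0.36 ± 0.15 in g159 and 0.18 ± 0.07 in g161, and genomic DNA signal differed by less than 1 log2 unit within both pairs. With processed signals and loess the fall was -3.63 ± 0.14 and -3.11 ± 0.11, and the rise was 3.20 ± 0.17 and 2.61 ± 0.32. The Cy3 of g160 was below the brightest control spot on most arrays, so the size of its steps was not settled. With the values used here the dim gene g36 also lay below both of its neighbours. The size of those steps was not settled either, since the Cy3 of g36 was below the brightest control spot on each array. The step from g36 to g37 was 5.30 ± 0.23 with these values, 2.69 ± 1.21 with processed signals and 0.13 ± 0.15 with loess.

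Such single peaks and dips were common. Of the 167 members that have a neighbour on both sides, 60 stood higher than both or lower than both, with both pairs called (33.6% of such genes on the array). Both genes were called above the median gene in 11 pairs (6.90% of all pairs), and both below it in 6 pairs (7.96%). In 19 pairs, 1 gene was called above and 1 below (11.0%). The counts of both kinds were close to the shares of the whole array, except for the 6 pairs with both genes below.

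**Figure D2:**
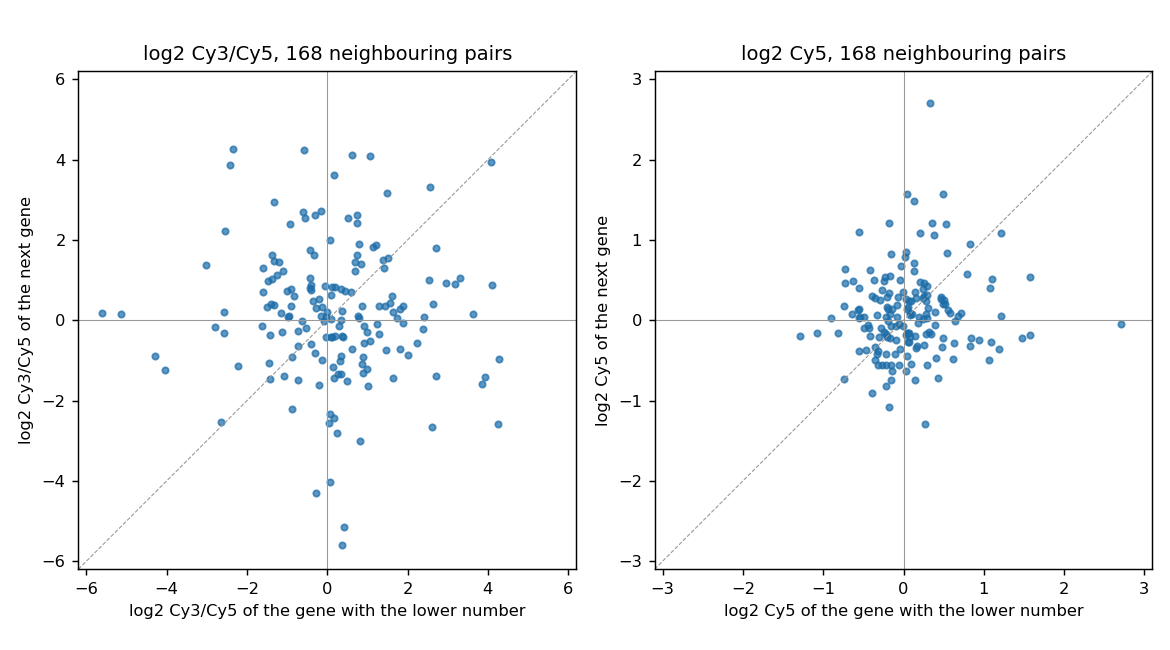
Each point is 1 of the 168 neighbouring pairs of block c678, with the gene of the lower number on the x axis and the next gene on the y axis, as means over 4 arrays. The left plot gives log2 Cy3/Cy5 and the right plot log2 Cy5, both relative to the median gene, and the dashed line marks equal values. Points lie on all sides of the origin on the left (r = -0.04), and both points at 2.70 on an axis of the right plot are pairs of g99.

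The ratio of a gene was little related to that of the next. Pearson's r over the 168 pairs was -0.04 on the means and ran from -0.061 to -0.019 on the single arrays, where it was 0.107 over the 5089 pairs of all blocks. These are correlations across genes, which share arrays and are not independent replicates, and each gene but the outermost enters 2 pairs. For RNA signal alone (Cy3) r was 0.025 in the block and 0.108 over all blocks. For genomic DNA signal alone (Cy5) it was 0.092 and 0.126. Over the 24 blocks of at least 50 genes, r of the ratio ran from -0.20 to 0.31, and 18 of the other 23 blocks had a higher r than block c678. The difference between block c678 and the other blocks in this respect was not tested.

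Genes farther apart in number gave no graded pattern. At a distance of 2 numbers r was -0.050, at 3 it was 0.056, at 5 it was -0.016 and at 10 it was 0.161. At 20 and at 40 numbers it was 0.041 and 0.095. Over all blocks r fell from 0.107 between neighbours to 0.034 at a distance of 2 and lay between -0.0049 and 0.017 at distances of 3 and over. The median absolute difference per array was 1.32 ± 0.03 log2 units at 3 numbers and 1.53 ± 0.02 at 20 numbers, so neighbours in the block (1.55 ± 0.04) differed by as much as genes 20 numbers apart.

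**Figure D3:**
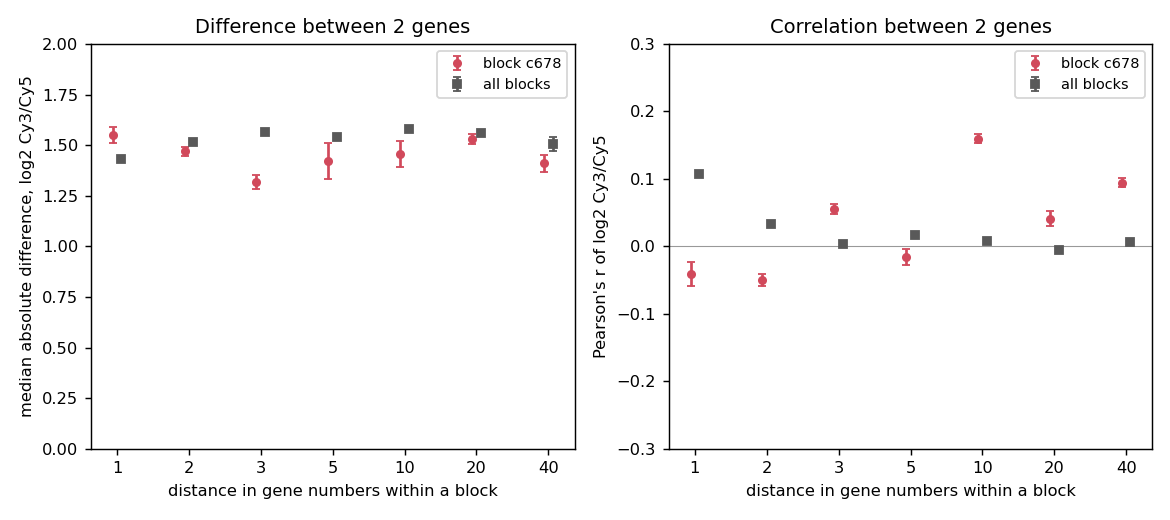
The left plot gives the median absolute difference in log2 Cy3/Cy5 between genes against their distance in gene numbers, and the right plot gives Pearson's r over the same pairs. Circles are block c678 and squares are all blocks, as means over 4 arrays with the SD as error bars. At a distance of 1 number, block c678 is above all blocks in difference (1.55 and 1.43) and below them in r (-0.04 and 0.107).

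The steps between neighbours followed RNA signal. In 154 of 168 pairs the ratio and Cy3 differed in the same direction, and this held for all 113 called pairs. In 103 of these, Cy3 alone differed by at least 1 log2 unit the same way. Genomic DNA signal differed by at least 1 log2 unit in 20 of the 113. Over the members, r between Cy3 and the ratio was 0.96, and between Cy5 and the ratio it was 0.28. Since the ratio is made from both channels, these values describe its make-up only. The same counts were not taken over all blocks, and over all genes Cy3 also varied more than Cy5 (SD 2.01 and 1.03). They are therefore not read as particular to the block.

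Most runs of consecutive genes with the same call were of single genes, as on the whole array. Of the runs called above the median gene, 24 were single genes, 5 were pairs and 3 held 3 genes. Single genes made up 24 of these 32 runs, the same share as in all blocks, where they made up 798 of 1064 runs called above. Of those called below, 24 were single genes, 3 were pairs and 1 held 4 genes. Single genes were 85.7% of these 28 runs and 72.2% of the 943 runs called below in all blocks, and this difference was not tested. The longest run with neither call was of 7 genes, from g19 to g25. The gene number itself had no relation to the level, with r = 0.011 between number and ratio over the 169 members.

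The 3 runs of 3 genes were g31 to g33, g121 to g123 and g135 to g137. In the first of them the levels were 1.06 ± 0.13, 4.08 ± 0.11 and 3.93 ± 0.01, so that a pair of very high genes followed 1 just past the threshold. The second was even, at 1.38 ± 0.21, 1.51 ± 0.06 and 1.55 ± 0.14, and g122 and g123 differed by 0.043 ± 0.13, less than their spread. The third rose and fell, at 2.56 ± 0.09, 3.31 ± 0.33 and 1.06 ± 0.07. The run of 4 below went from g164 to g167, at -1.43 ± 0.13, -1.46 ± 0.21, -1.07 ± 0.03 and -1.38 ± 0.18, all within 0.5 log2 units. The difference between g164 and g165, -0.032 ± 0.11, was the smallest of all pairs of the block. None of these 4 runs held under processed signals or loess. Of their 13 genes, only g135 kept its call with processed signals and 0 did with loess, with g122 and g136 at -0.69 and -0.25.

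Taken in 17 windows along the numbering, of 10 genes each but the last, of 9, the medians were above 0 in 12. The highest was 1.19 ± 0.05 for g91 to g100, with 5 genes called above and 2 below. Close to it was g121 to g130 at 1.14 ± 0.16, with 5 above and 0 below, the only window in which all genes had a mean above 0. The lowest was g151 to g160 at -0.89 ± 0.03, with 0 above and 4 below. The windows g91 to g100 and g151 to g160 held both of the biggest falls of the block, at g100 and g160. Medians of genomic DNA signal in these 3 windows were 0.27, 0.22 and 0.11, so they differed far less than the ratio. The windows were not tested against each other.

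Genomic DNA signal varied less than RNA signal along the block, with means from -1.29 to 2.70. Its SD over the members was 0.54 ± 0.02 log2 units, against 1.03 ± 0.02 over all genes, while RNA signal had an SD of 1.90 ± 0.03 over the members and 2.01 ± 0.04 over all genes. On the mean over arrays, 92.3% of members had a Cy5 signal less than 1 log2 unit away from that of the median gene, and 93.3% of all genes did. The smaller SD in the block thus came with a similar share of genes near the median and with no member under -1.29. Between neighbours, the median absolute difference in Cy5 was 0.44 ± 0.04 in the block and 0.42 ± 0.01 over all blocks. From gene to gene, Cy5 was therefore no smoother in the block than elsewhere.

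**Figure D4:**
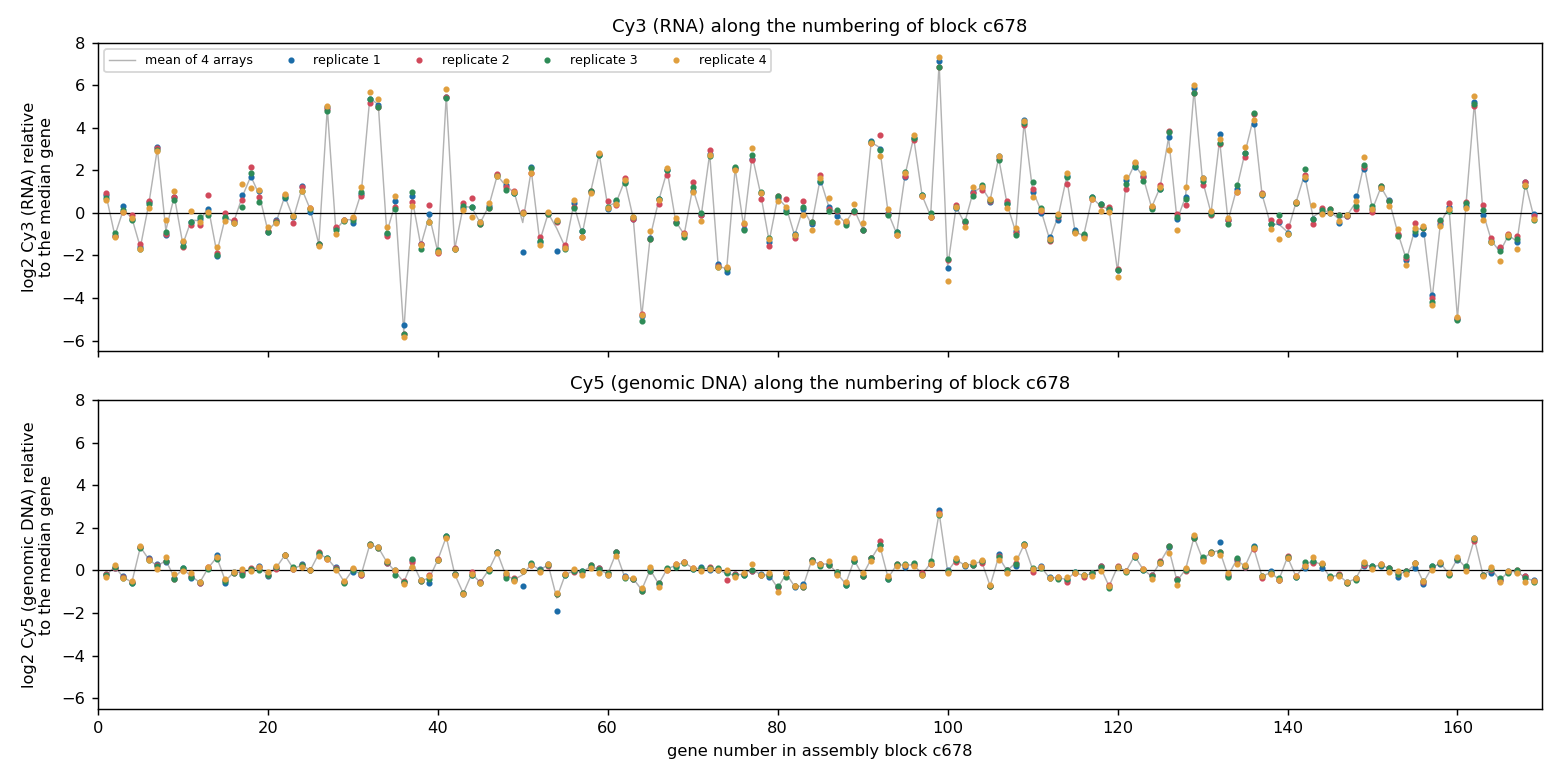
Log2 Cy3 (RNA, upper plot) and log2 Cy5 (genomic DNA, lower plot), each relative to the median gene, against gene number in block c678 on the same vertical scale. Points are the 4 replicate arrays and lines join the means. Cy3 has an SD of 1.90 over the members and Cy5 of 0.54, and the peak in Cy5 is g99 at 2.70.

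In Cy5, 9 members were at least 1 log2 unit above the median gene on all 4 arrays (3.65% of all genes), namely g5, g32, g33, g41, g99, g109, g129, g136 and g162. After g99, with 2.83, 2.70, 2.61 and 2.67 on replicates 1 to 4, came g41 with 1.62, 1.56, 1.61 and 1.52 (mean 1.58 ± 0.05) and g129 (1.57 ± 0.07). Of the 9 members, 8 were also called above the median gene in the ratio, at 2.96 or more. The share called above among all genes with such a Cy5 was not computed, so this count is not particular to the block as far as is known here. The exception was g5, whose Cy5 was 1.10 ± 0.04 and whose ratio was -2.79, -2.76, -2.86 and -2.81 (mean -2.81 ± 0.04). With processed signals 23 members (17.7% of all genes), and with normexp 18 (10.5%), were off by at least 1 log2 unit in Cy5 on every array, where the values used here gave 11 (5.73%). A high genomic DNA signal was found in members with high RNA and in 1 with low RNA.

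Below the median gene by at least 1 log2 unit in Cy5 on all 4 arrays were g43 and g54 (2.08% of all genes were). In g43, Cy5 was -1.12, -1.04, -1.07 and -1.08 (mean -1.08 ± 0.03). In g54 it was -1.90 on replicate 1 and -1.09, -1.11 and -1.07 on the others. The ratio was above the median gene in g43 (1.30 ± 0.13) and not called in g54 (0.48 ± 0.29). With processed signals and loess g54 was called above, at 1.63 and 1.27, and g43 stayed above at 1.74 and 1.45. The third lowest in Cy5 was g64 (-0.91 ± 0.06), already described among the lowest ratios.

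Over the members, r between Cy3 and Cy5 was 0.53 (0.46 over all genes), and it was 0.24 over the members left when those with a mean Cy5 of at least 1 were set aside. Probe composition moved with genomic DNA signal too. The GC content of a member's probes had a median of 40% and ran from 36.4% to 53.6%, and its r with Cy5 was 0.54 over the members and 0.29 over all genes. Without the members with a mean Cy5 of at least 1 it was 0.56, and with the ratio it was 0.11. The part of GC content and of probe sharing in these signals was not tested.

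Some members had a probe that shared a stretch of at least 20 bases with a probe of another gene, so that RNA of either gene may bind at both. There were 9 of them (5.33%, and 3.85% of all genes), and 8 of the 9 were called above the median gene. Over the whole array, 48.3% of the 211 sharing genes were called above, and 49.3% of them had a mean Cy5 of at least 1. In the block this held for 5 of the 9 sharing members. Without the 9 sharing members, the count of members that were off by 1 log2 unit or more in Cy5 on every array went from 11 to 6.

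A set of 3 sharing members matched block c632 in the same order. The probes of g32, g33 and g41 shared stretches of 36, 40 and 55 bases with those of genes 19, 20 and 29 of block c632. Both probes of g41 were identical to those of gene 29 of block c632, so the RNA of these genes cannot be told apart. The ratios were alike in all 3 pairs. Gene g32 was at 4.08 ± 0.11 and its counterpart at 4.08 ± 0.09, a difference of 0.0077 ± 0.066. Gene g33 was at 3.93 ± 0.01 and its counterpart at 3.62 ± 0.14, higher in the block on 4 of 4 arrays. For g41 and its counterpart, with the same probe sequences at different spots, the ratios were 3.86 ± 0.10 and 4.12 ± 0.11, lower in the block on 4 of 4 arrays by 0.26 ± 0.13. A difference of that size was thus found between spots that carry the same sequences.

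Another set matched block c660, with its numbers in the opposite order. Here g149 shared 28 bases with gene 14 and g162 shared 30 bases with gene 2, in 1 probe each. The ratios were 1.89 ± 0.16 and 2.08 ± 0.11 in the first pair, and 3.63 ± 0.05 and 3.80 ± 0.09 in the second. In g149 the sharing probe was at 2.45 ± 0.12 and the other at 1.32 ± 0.27, so its mean stands for neither probe. Gene g129 shared 31 bases with gene 27 of block c650 and was at 4.11 ± 0.07 against 3.89 ± 0.19. In these 3 pairs the mean difference was at most 0.22 log2 units either way, which is less than that between g33 and its counterpart (0.31 ± 0.13).

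Sharing a stretch did not always go with a like level. Gene g77 shared 22 bases with gene 25 of block c628 and was at 2.46, 2.45, 2.65 and 2.59, while the other gene was at -1.16, -1.08, -1.20 and -1.23. The difference was 3.70 ± 0.16 log2 units. Within the block, the neighbours g120 and g121 shared 23 bases in 1 probe each. Gene g120 was at -2.97, -3.03, -2.96 and -3.10 (mean -3.01 ± 0.06), and g121 was at 1.48, 1.10, 1.34 and 1.60 (mean 1.38 ± 0.21). These were neighbours with a difference of 4.39 ± 0.24 in spite of the shared bases.

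**Figure D5:**
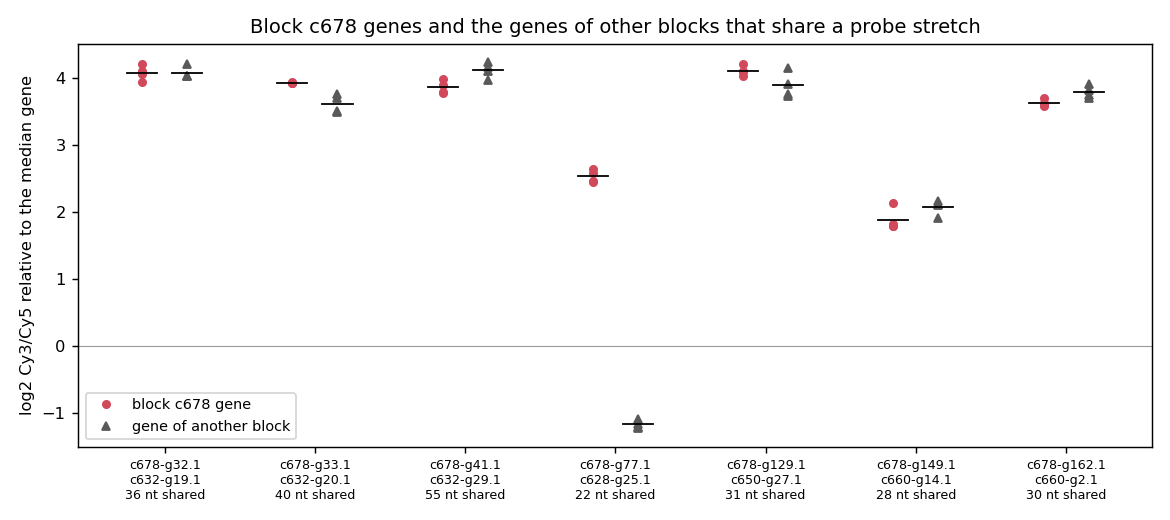
Log2 Cy3/Cy5 relative to the median gene for the 7 genes of block c678 (circles) that share a probe stretch with a gene of another block (triangles), on 4 arrays each, with bars at the means. The number of shared nucleotides is given under each pair. Levels are close in 6 pairs and 3.70 log2 units apart in the pair of g77, which shares 22.

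Both probes of a gene usually gave a like ratio. The median absolute difference between the probes was 0.288 log2 units over the members and 0.276 over all genes. In 23 members (13.6%, and 21.0% of all genes) the probes had a stretch of at least 15 bases in common. Such probes are not independent measures of their gene. Among them were g33 and g122, with 30 bases in common, and g159, with 54. A limma fit over 5481 genes called 6 members (5.47% of genes) as differing by at least 1 log2 unit between probes, namely g26, g47, g71, g76, g149 and g151. The largest difference was in g151, where 1 probe gave 1.70, 1.58, 1.64 and 1.56 and the other 0.10, 0.12, 0.15 and -0.05, a difference of -1.54 ± 0.08. Its mean of 0.85 therefore stands for neither probe. In g76 the probes gave 0.10 ± 0.22 and -1.22 ± 0.14, and in g47 they gave 1.40 ± 0.12 and 0.26 ± 0.11. With normexp the count of members with such probes was 19 (9.74% of genes), with processed signals 22 (13.4%) and with loess 50 (23.9%). Only g26 and g149 of the 6 were among the genes called above or below the median gene. Both probes of g26 were low (-2.91 ± 0.11 and -1.79 ± 0.04), so the step from g26 to g27 held for either.

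The levels were steady between replicates. The median SD of a member over 4 arrays was 0.106 log2 units, and 0.104 over all genes. It was 0.141 in Cy3 and 0.0596 in Cy5 over the members, and 0.134 and 0.0559 over all genes. The larger SD was in Cy3 in 144 of the 169 members. This count was not taken over all genes, so it is not read as particular to the block. Between arrays, r of the ratio over the members ran from 0.985 (replicates 2 and 4) to 0.995. Neighbours did not deviate from their means together, with r of the deviations between -0.13 and 0.061 on the 4 arrays.

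The members with the largest SD were g50, g139 and g13. By the rule for outlying arrays in the closing section, only g50 of these was marked. The ratio of g50 was -1.19 on replicate 1 and -0.01, -0.10 and -0.05 on the others. The deviation lay in 1 of its probes, which was at -2.13 there, while the other probe was at -0.21. That probe was low in both channels on replicate 1, with a Cy5 of -1.55 and a Cy3 of -3.60. In g139 replicate 4 was at -0.88 and the others between -0.06 and 0.17. In g13 replicate 2 was at 0.61 and the others between -0.26 and 0.00. None of these 3 genes was called above or below the median gene.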

How the data were processed

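RNA (Cy3) and genomic DNA (Cy5) of 4 replicates were read on 4 two-colour Agilent arrays. Per the file headers the authors' scans were read with Agilent Feature Extraction 10.1.1.1, a version other than that in the methods of the study, and the deposited tables give spot intensity on a linear scale, not normalized in the median signals used. From these, each spot's local background median was subtracted in each channel, outlier spots were left out, and log2 of Cy3 over Cy5 was taken, as its median over 2 probes per gene, quantile normalized between arrays as in the methods of the study, and centred on the median gene. Quantile normalization draws replicates together at the extremes (SD of g33 0.0088 after it and 0.15 before it), so spread and p-values there are optimistic. Channels alone were centred only. For each of genes, neighbouring pairs and probe differences, limma 3.58.1 in R 4.3.3 fitted an intercept over the whole array with Benjamini-Hochberg adjustment, and was tested on simulated data. Calls needed an adjusted p under 0.05 and 1 log2 unit. The labels name 1 group, and p-values measure only the spread between these 4 samples, whose number limits precision. Arrays were compared under other backgrounds (none, normexp with offset 50, processed signals), normalizations, flags, dim-probe filters and left-out replicates.

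The members and lists were chosen with earlier results of these data known. Genes named with values on every array were the 4 highest and 4 lowest in ratio, the 5 neighbouring pairs that differed most, the 3 with the largest SD, the 3 highest and 3 lowest in Cy5, the longest runs, and the 3 whose probes differed most. Members that share probe stretches were named after their values were seen. The deposited table of log2 values was not used, since its row numbers match no probe column. Figures were drawn with matplotlib 3.10.9 in Python 3.11.15.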

Additional observations from a re-analysis of the deposited data

Results flagged for a closer look

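Each ratio and Cy5 value of a named gene, and each per-array summary of the block, was set against those of the other arrays. A gap between 1 array and the rest that exceeded Dixon's critical value for 4 values was marked. Of 86 sets of 4 values, 7 were marked, where chance marks about 1 in 20 of independent sets. These sets were not independent, since a spot enters both the ratio and the Cy5 of its gene. Gene g50 was also named for its large SD, so no excess over that rate can be read from this count. Before quantile normalization, the log2 ratio of g36 was -4.79 on replicate 1 and between -5.28 and -5.27 on the others, in a gene with a dim Cy3 signal. That of g41 was 4.2 on replicate 4 and 3.71 to 3.78 on the others, where 1 of its probes was at 4.26 on replicate 4 and at 3.42 to 3.45 on the others. That of g137 was 1.15 on replicate 2 and 1.03 to 1.04 on the others, a small gap in a tight gene.

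Replicate 1 was the array apart in 5 of the 7, among them g36. The ratio of g50 was -1.17 there and -0.10 to -0.01 on the others, and its Cy5 was -0.74 there and -0.03 to -0.003 on the others. The ratio of g54 was 0.045 there and 0.58 to 0.65 on the others, and its Cy5 was -1.90 there and -1.11 to -1.07 on the others. In both genes 1 probe was low in Cy5 on that array (-1.55 in g50 and -2.58 in g54), while the other probe was at 0.068 in g50 and -1.22 in g54, near its values on the other arrays. The low probe was lower still in Cy3 there (-3.60 in g50 and -3.26 in g54), so it was low in both channels. The cause was not tested.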

How the results depend on the processing

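No paired analysis was possible because the series holds 1 group. With processed signals, the count of members above the median gene was 20 and below it 19 (43 and 34 as reported), the median of the members 0.073 (0.17), with 72 called pairs (113), a median absolute neighbour difference of 0.773 log2 units (1.54), a neighbour correlation of -0.126 in the ratio (-0.041), 0.00032 in Cy3 (0.025) and 0.121 in Cy5 (0.092), 23 members off in Cy5 (11) and 22 with differing probes (6). With loess after normexp these were 16 above, 27 below, 75 pairs, 0.831, -0.122 in the ratio and 50 with differing probes, and the median of the members was -0.0066. Normexp alone gave a median of 0.28, a neighbour difference of 1.46, -0.071, 18 in Cy5 and 19 with differing probes. Cy3 alone gave 1.45 and 0.025. At 2 log2 units, 20 genes were above, 13 below, 63 pairs were called, and limma called 0 members with differing probes, the largest difference being 1.54. An alternative chosen after seeing the data, without the 9 sharing members, gave a median of 0.11, a neighbour difference of 1.45, a Cy5 correlation of 0.073 and 6 in Cy5. The cause was not tested in any of these.

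Of 373 values of single genes under 11 alternatives, 321 kept direction and call, 28 lost the call, 2 gained it (both g54, at 1.63 with processed signals and 1.27 with loess) and 22 turned direction. With processed signals the turned values were -0.75 in g99, -0.14 in g129, -0.087 in g41, -0.011 in g161, 0.11 in g50, 0.33 in g139, -0.12 in g13 and -0.52 in g47. With loess they were -0.89, -0.43, -0.39, -0.12, 0.067, 0.44, -0.26 and -1.49 in the same genes, and 0.011 in g64, -0.69 in g122, -0.25 in g136 and -0.49 in g151. Without replicate 4, g139 was at 0.025 (-0.33 to 0.025 over the left-out replicates), and without replicate 2, g13 was at -0.15 (-0.15 to 0.14).

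Leaving out 1 replicate at a time gave 43 to 44 genes above, 33 to 34 below and 112 to 114 called pairs. No background subtraction, no quantile normalization, keeping outlier spots and using only genes well above background moved none of the counts by over 1.5 times. The alternative with the deposited log2 table was not run. Dim Cy3 signal limits the lowest levels, as in g36 at 56.6 scanner units, and g99, with the highest genomic DNA signal of the block, went from 4.25 to -0.75 with processed signals.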
